A study of Mus musculus with 4 samples.

Results

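The collagen chain genes were described across 4 sorted populations of mouse intestinal tumour cells. Members were all genes whose symbol had the form Col, a number, a and a number, reached through the accession of the array probe, which gave 44 genes of 22907 on the array. Where a gene had several probes, the one with the highest mean intensity over the 4 arrays stood for it.

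The cells were sorted by Lgr5, a receptor of intestinal stem cells, and by a tuft cell marker, and each population was measured on 1 one-colour array. Cells carrying both (Lgr5+ tuft marker+) are called double-positive, those with Lgr5 alone (Lgr5+ tuft marker-) Lgr5-only, those with the tuft marker alone (Lgr5- tuft marker+) tuft-only, and those with neither (Lgr5- tuft marker-) double-negative. All 4 came from EpCAM+ tumour epithelium of mice carrying Lgr5CreERT2/+ and a loxP-flanked exon 3 in both Ctnnb1 alleles, collected 14 days after tamoxifen. The Lgr5 gene drives the inducible recombinase, so beta-catenin, the product of Ctnnb1, is stabilised in Lgr5-expressing cells and in what descends from them, and all 4 populations carried the same alleles and the same drug. The tuft marker was IL17RB, a cytokine receptor of tuft cells, rare epithelial cells that sense the contents of the gut. The number of animals and the stretch of intestine are not given in the sources used here.

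Collagens are proteins of the extracellular matrix built from chains that wind around each other as a triple helix. Fibrillar chains such as those of types I and III form the tensile fibres of connective tissue, while type IV chains form the sheet-like network of the basement membrane on which epithelia rest. In the gut, fibrillar collagen is made mainly by fibroblasts of the stroma, and type IV chains come from stromal cells beneath the epithelium and from some epithelial cells.

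With 1 array per population there was no replicate check, so every difference is a description of these 4 arrays and no p-value is given. Of the spots, 60.2% to 69.0% were well above background and none was saturated. Levels are log2 of the background-subtracted intensity minus the 75th percentile of the array, so that a level of 0 is that percentile, and each probe is compared only with itself on other arrays. The sort genes went with the labels. The level of Il17rb was -0.04 in double-positive cells and -2.82 in Lgr5-only cells, and 0.43 in tuft-only cells against a spot not well above background in double-negative cells. Lgr5 lay at -0.45 and -0.49 in the double-positive and Lgr5-only cells, against no signal well above background in tuft-only cells and -2.87 in double-negative cells. The epithelial sort gene Epcam stood at 5.36, 5.53, 4.82 and 5.88 in double-positive, Lgr5-only, tuft-only and double-negative cells. It was thus lowest in tuft-only cells, by more than 2-fold against double-negative cells.

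Of the 44 chains, 36 were well above background on at least 1 array and 22 on all 4. The number above background was 27 in double-positive cells, 27 in Lgr5-only cells, 33 in tuft-only cells and 27 in double-negative cells. Of all 22907 genes, 15241, 16809, 17087 and 15866 were above background in the same order. The tuft-only array thus had the most genes above background as well, and nothing is read from the count of chains. The 8 chains above background on no array were the fibrillar chain Col27a1, the basement membrane chains Col4a4 and Col4a6, the beaded filament chains Col6a5 and Col6a6, the fibril-associated chain Col19a1 and the short network chains Col8a2 and Col10a1. Their spots give only an upper bound.

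Of the 44 members, 35 had a promoter in the RefSeq-derived table of the GRCm38.p6 build. Col1a1, Col2a1, Col5a2, Col4a3, Col9a3, Col12a1, Col14a1, Col22a1 and Col26a1 are named only. The 250 bases before the annotated start of 3 fibrillar genes are shown because these genes were at least 2-fold higher in the tuft-only cells than in each of the other populations, as given below. All 3 lie on the plus strand, Col1a2 at chr6:4505368-4505617, Col3a1 at chr1:45311288-45311537 and Col5a1 at chr2:27886175-27886424. Capitals mark 3 strings searched on both strands. The first was CCAAT, a promoter element that the factor NF-Y is known to bind. The second was TATAAA, the core element that places the start of many regulated genes. The third was GGGCGG, an element bound by Sp1 and its relatives. They do not overlap one another in these windows.
Col1a2: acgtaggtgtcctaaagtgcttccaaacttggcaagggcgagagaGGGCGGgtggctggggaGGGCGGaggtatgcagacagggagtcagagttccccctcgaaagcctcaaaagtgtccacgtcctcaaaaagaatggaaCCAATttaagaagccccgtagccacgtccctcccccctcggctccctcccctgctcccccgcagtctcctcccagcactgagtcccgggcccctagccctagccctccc
Col3a1: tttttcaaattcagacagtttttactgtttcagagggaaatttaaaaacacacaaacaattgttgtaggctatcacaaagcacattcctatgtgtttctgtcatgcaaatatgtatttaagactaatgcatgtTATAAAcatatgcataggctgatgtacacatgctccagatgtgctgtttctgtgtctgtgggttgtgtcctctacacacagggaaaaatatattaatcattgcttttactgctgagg
Col5a1: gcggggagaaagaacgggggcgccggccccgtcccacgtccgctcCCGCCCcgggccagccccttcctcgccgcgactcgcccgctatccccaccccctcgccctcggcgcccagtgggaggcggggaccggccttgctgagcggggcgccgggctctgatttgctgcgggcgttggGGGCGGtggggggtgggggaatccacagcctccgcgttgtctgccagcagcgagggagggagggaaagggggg
Counted back from the start, Col1a2 holds CCAAT beginning at -109 and GGGCGG at -205 and -188. Col3a1 holds TATAAA at -117, and Col5a1 holds GGGCGG at -73 and, on the opposite strand, at -205. No motif is shared by all 3 windows, whose G and C content was 62.0%, 35.2% and 76.4% for Col1a2, Col3a1 and Col5a1. Over the 35 members with a promoter, 37.1% held CCAAT, beside 37.5% of all 27025 genes in the table. The share with TATAAA was 14.3%, beside 14.3%, and that with GGGCGG was 60.0%, beside 35.4%. GGGCGG consists of G and C only, and base composition was not matched between the members and all genes. These matches are letters in a window and not evidence that a factor binds there.

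The fibrillar chains of types I, II and III were higher in cells with the tuft marker than in cells without it, within Lgr5+ cells and by more within Lgr5- cells. Col1a2, the second chain of type I collagen, had intensities of 431 in double-positive cells, 87.5 in Lgr5-only cells, 1621 in tuft-only cells and 86.3 in double-negative cells. Its levels in that order were 2.06, -0.69, 3.90 and -0.41. Both tuft marker- arrays read close to each other, and both tuft marker+ arrays lay above them. The tuft marker difference of Col1a2 was 2.76 within Lgr5+ (6.76-fold) and 4.32 within Lgr5- (19.9-fold), each with a scanner error of 0.21. In RNA of bulk cells, more cells of a type and more RNA per cell cannot be told apart. The scanner error covers how well a spot was read, and says nothing of how animals, sorts or labellings vary.

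Col3a1, which forms type III collagen and accompanies type I in the wall of hollow organs, had levels of 0.91, -2.31, 3.64 and -1.28 in the same order of populations. It was 9.34-fold higher in tuft marker+ cells within Lgr5+ (3.22 on the log2 scale, scanner error 0.24) and 30.3-fold higher within Lgr5- (4.92, scanner error 0.22). Its lowest level was that of the Lgr5-only cells.

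Col1a1, the first chain of type I collagen, had levels of 0.17 in double-positive cells and 2.05 in tuft-only cells. Its spots were not well above background in Lgr5-only cells (-5.38) or in double-negative cells (-3.39). The tuft marker difference was therefore a lower limit, at least 13.2-fold within Lgr5+ and at least 42.6-fold within Lgr5-. A second Col1a1 probe, above background on all 4 arrays, gave levels of -0.17, -1.99, 1.29 and -1.99 and smaller tuft marker differences of 1.82 within Lgr5+ and 3.28 within Lgr5-. Both probes put the tuft marker+ cells higher, and the second falls below the limits that the first gives, so the size of the Col1a1 difference depends on the probe. With the highest mean log2 level as the rule, the second probe would stand for the gene.

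Col2a1, best known as the collagen of cartilage, had levels of -1.12, -2.17, 1.52 and -2.65. It was 2.08-fold higher in tuft marker+ cells within Lgr5+ (1.05, scanner error 0.27) and 18.1-fold within Lgr5- (4.17, scanner error 0.30). Col5a1, a type V chain that starts and regulates type I fibrils, had levels of -1.38, -2.19, 0.30 and -2.17. Its tuft marker difference was 0.82 within Lgr5+, short of 2-fold, and 2.46 within Lgr5- (5.52-fold). Col24a1, a minor fibrillar chain, ran at 3.12, 3.31, 4.05 and 2.56, with differences of -0.20 within Lgr5+ and 1.49 within Lgr5-. A second Col24a1 probe was not well above background on any array.

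The other fibrillar chains were closer together. Col11a1, a type XI chain of cartilage fibrils, had levels of -1.19, -1.07, -0.72 and -0.87, and its partner Col11a2 had levels of -0.79, -0.36, -0.23 and -0.76. Neither was 2-fold apart in any pair. Both remaining type V chains were above background on 1 array each, Col5a2 in tuft-only cells at -3.15 (-3.50, -4.30 and -3.56 in the other populations, in the order double-positive, Lgr5-only, double-negative) and Col5a3 in double-negative cells at -3.21 (-4.16, -3.69 and -5.06 in the other 3, in the order double-positive, Lgr5-only, tuft-only). Both lay near the floor, the lowest level among probes well above background on an array, and within Lgr5- Col5a2 was higher with the tuft marker by at least 0.22, while Col5a3 was lower, at -0.14 or further below 0.

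**Figure D1:**
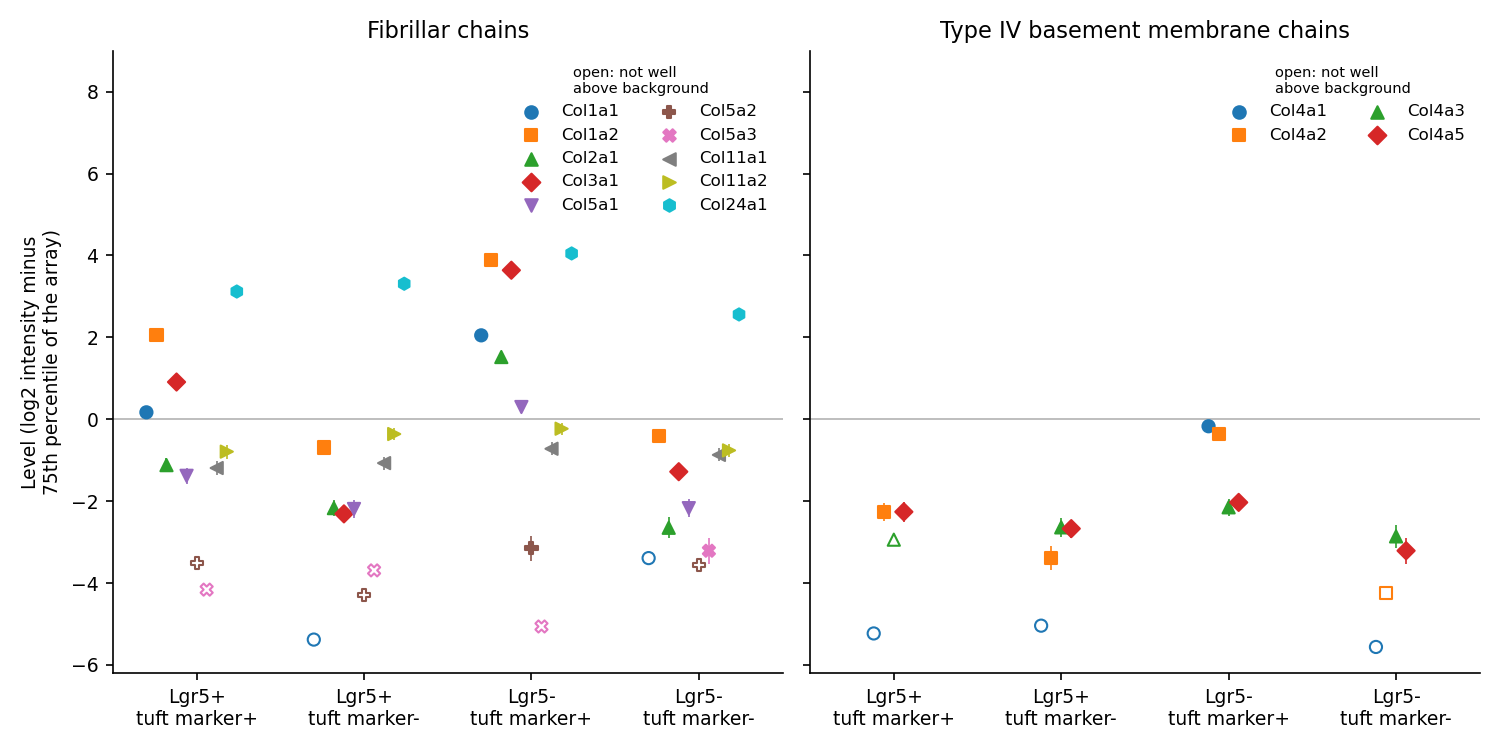
Level of each fibrillar chain (left) and type IV chain (right) above background on at least 1 array, as log2 intensity minus the 75th percentile of the array, in the 4 populations. Bars on filled points are the scanner error of the spot and open points were not well above background. Col1a1, Col1a2 and Col3a1 were higher on both tuft marker+ arrays, Col4a1 was above background only in tuft-only cells (Lgr5- tuft marker+), and heights of different genes are not comparable.

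Among the type IV basement membrane chains, Col4a1 and Col4a2 stood out in the tuft-only population. Together they make the main type IV network of most tissues, and their genes lie head to head on chromosome 8 with starts 21 bases apart in the GRCm38.p6 table. Col4a1 was above background only in tuft-only cells, with a level of -0.17 and an intensity of 96.3, while the other spots read -5.23 in double-positive cells, -5.04 in Lgr5-only cells and -5.56 in double-negative cells. Tuft-only cells thus exceeded double-negative cells by at least 9.13-fold, and within Lgr5+ neither spot was above background, so no difference is given.

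Col4a2 had levels of -2.26, -3.39 and -0.35 in double-positive, Lgr5-only and tuft-only cells, and -4.24 in double-negative cells, where it was not well above background. It was 2.19-fold higher in tuft marker+ cells within Lgr5+ (1.13, scanner error 0.37) and at least 8.04-fold higher within Lgr5-. The within-Lgr5+ value lies close to the threshold of 2-fold relative to its own error.

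The type IV chains of specialised basement membranes showed smaller differences. Col4a5 had levels of -2.26, -2.67, -2.03 and -3.21, with tuft marker differences of 0.42 within Lgr5+ and 1.18 within Lgr5- (2.26-fold, scanner error 0.37). Col4a3 was not well above background in double-positive cells (-2.94) and read -2.64, -2.15 and -2.86 in the Lgr5-only, tuft-only and double-negative cells. Its difference was -0.30 within Lgr5+, a limit, and 0.71 within Lgr5-.

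The 4 other chains of the basement membrane zone were near level. Col7a1, which makes the anchoring fibrils below squamous epithelia, ran at 1.80, 1.68, 1.82 and 1.86. Col17a1, a transmembrane chain of hemidesmosomes, ran at 1.06, 1.94, 1.72 and 1.35. Col15a1 and Col18a1, proteoglycan-like chains of basement membranes, ranged from -2.25 to -1.83 and from -2.02 to -1.43. All 4 were above background on every array, and none was 2-fold apart in any of the 4 pairs by its brightest probe.

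Of the 29 chains measured within Lgr5+, 6 were at least 2-fold higher in tuft marker+ cells and 0 were lower, beside 11.5% and 7.87% of 16895 genes. Within Lgr5-, 15 of 36 measured chains were higher and 0 lower, beside 16.1% and 12.7% of 17872 genes. Taken over every gene on the array, measured or not, the higher chains were 6 and 15 of 44, beside 8.46% and 12.5% of 22907 genes. A chain seen only on the array where it is high had to differ, so the 22 chains above background on all 4 arrays were counted apart. Of these, 3 were higher within Lgr5+ and 0 lower, beside 9.16% and 6.4% of 13915 such genes. Within Lgr5- the counts were 7 higher and 0 lower, beside 12.5% and 13.7%. The 6 chains higher in both pairs were Col1a1, Col1a2, Col2a1, Col3a1, Col4a2 and Col9a3, of 29 measured in both, beside 5.02% of 16360 genes, and 0 were lower in both, beside 1.45%. By their brightest probes, Col1a1 and Col9a3 passed background only on tuft marker+ arrays, so they could only be higher. The same held for Col4a2 within Lgr5-. Col1a2, Col2a1 and Col3a1 were above background on all 4 arrays, and no share of all genes was computed for that count.

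The fibrillar chains had a median tuft marker difference of 0.94 over 8 measured within Lgr5+ and 1.98 over 10 within Lgr5-. The type IV chains had medians of 0.42 over 3 and 2.09 over 4, and the other basement membrane zone chains -0.23 and 0.04 over 4 each. The medians over all genes were 0.01 within Lgr5+ and 0.07 within Lgr5-. The 2-fold mark was passed upward by 4 of 8 fibrillar chains within Lgr5+ and by 6 of 10 within Lgr5-, and by 1 of 3 and 3 of 4 type IV chains. Col4a1 and Col4a2 were measured within Lgr5- only through the tuft-only array, so the type IV median there is set by where the chains passed background. Over the chains above background on all 4 arrays, the medians within Lgr5- were 2.46 for 7 fibrillar chains and 1.18 for the 1 type IV chain, Col4a5.

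**Figure D2:**
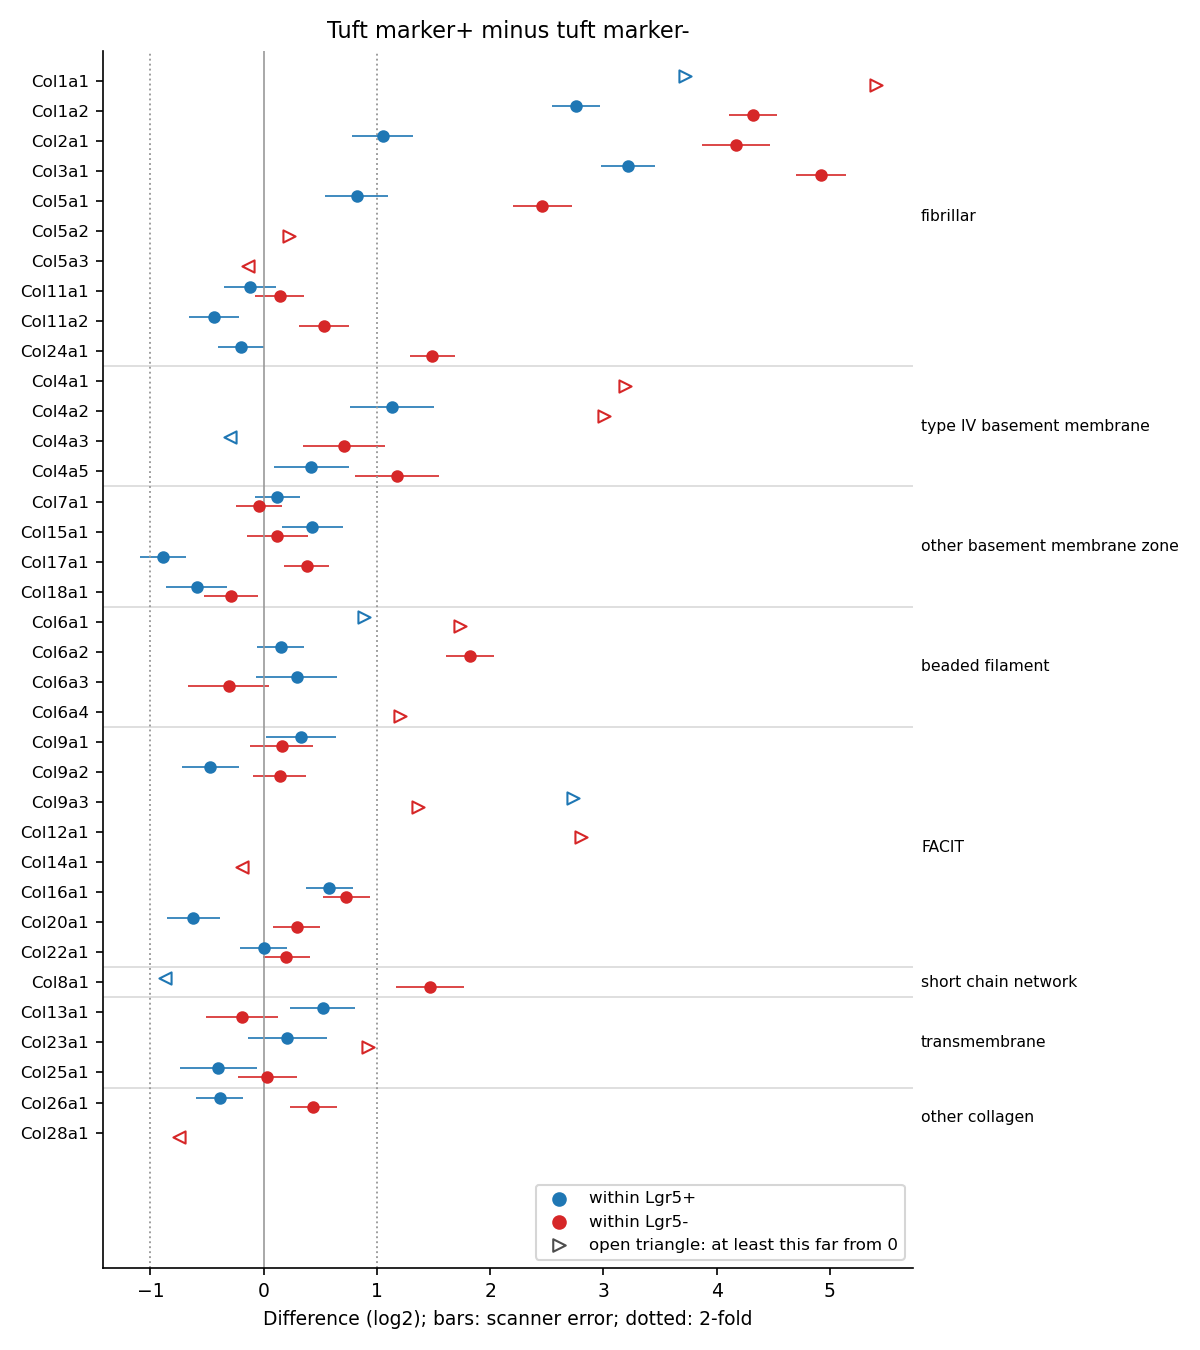
Difference between tuft marker+ and tuft marker- cells (log2, horizontal axis) for each measured collagen chain (rows, grouped by class), within Lgr5+ (blue) and within Lgr5- (red). Bars are the scanner error, triangles are lower limits and dotted lines mark 2-fold. The highest values are those of Col1a1, Col1a2, Col2a1 and Col3a1 within Lgr5-, between 4.17 and at least 5.41.

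The tuft-only population was where most of these chains were highest. It stood at least 2-fold above each of the other 3 for 12 of 36 chains, beside 3.58% of 18637 genes, and held the highest level for 22 of 36, beside 32.1%. The 12 were Col1a1, Col1a2, Col2a1, Col3a1, Col5a1, Col4a1, Col4a2, Col6a1, Col6a2, Col6a4, Col12a1 and Col8a1. Col4a1 and Col12a1 passed background on that array alone and had to differ. Of the 22 chains above background on all 4 arrays, 5 stood at least 2-fold above each other array in tuft-only cells, beside 1.90% of 13915 genes, namely Col1a2, Col2a1, Col3a1, Col5a1 and Col6a2. The double-positive population stood above each of the others for 1 chain, Col9a3, beside 1.56% of genes. The Lgr5-only and double-negative populations did so for 0 chains, beside 1.02% and 1.26%. In the other direction Col3a1 lay at least 2-fold below each other array in Lgr5-only cells, beside 1.11% of genes. No chain did so in double-positive (0.805% of genes), tuft-only (2.5%) or double-negative cells (1.03%).

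The Lgr5 comparison followed from the same arrays. Within tuft marker+ cells, 1 of 32 chains passed 2-fold upward with Lgr5 and 13 were lower in Lgr5+ cells, beside 9.74% and 11.0% of 17350 genes. Over the 22 chains above background on all 4 arrays, 0 were higher and 6 lower, beside 9.90% and 8.32% of 13915 genes. Col3a1 was 6.62-fold lower in Lgr5+ cells (-2.73), Col2a1 6.25-fold (-2.64), Col1a1 3.67-fold (-1.88), Col1a2 3.58-fold (-1.84) and Col5a1 3.19-fold (-1.67), with scanner errors of 0.20 to 0.24. Of the type IV chains, Col4a1 was at least 7.49-fold lower and Col4a2 3.74-fold lower. The medians were -1.76 for 8 fibrillar chains, -1.35 for 4 type IV chains and -0.03 for all genes.

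Within tuft marker- cells few chains differed by Lgr5. Of 28 measured, 0 were at least 2-fold higher and 1 was lower in Lgr5+ cells, beside 6.41% and 5.55% of 17369 genes. The 1 was Col3a1, 2.04-fold lower (-1.03, scanner error 0.25), a value at the threshold. Over the chains above background on all 4 arrays the counts were 0 higher and 1 lower of 22, beside 4.62% and 4.65% of genes. Col3a1 was also the only chain lower in both Lgr5 pairs, of 25 measured in both, beside 0.579% of 16246 genes, and 0 were higher in both, beside 0.757%. The medians were -0.11 for 8 fibrillar chains, 0.38 for 2 type IV chains and 0.00 for all 28. The Lgr5 and tuft marker comparisons use the same 4 arrays and are not separate evidence.

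**Figure D3:**
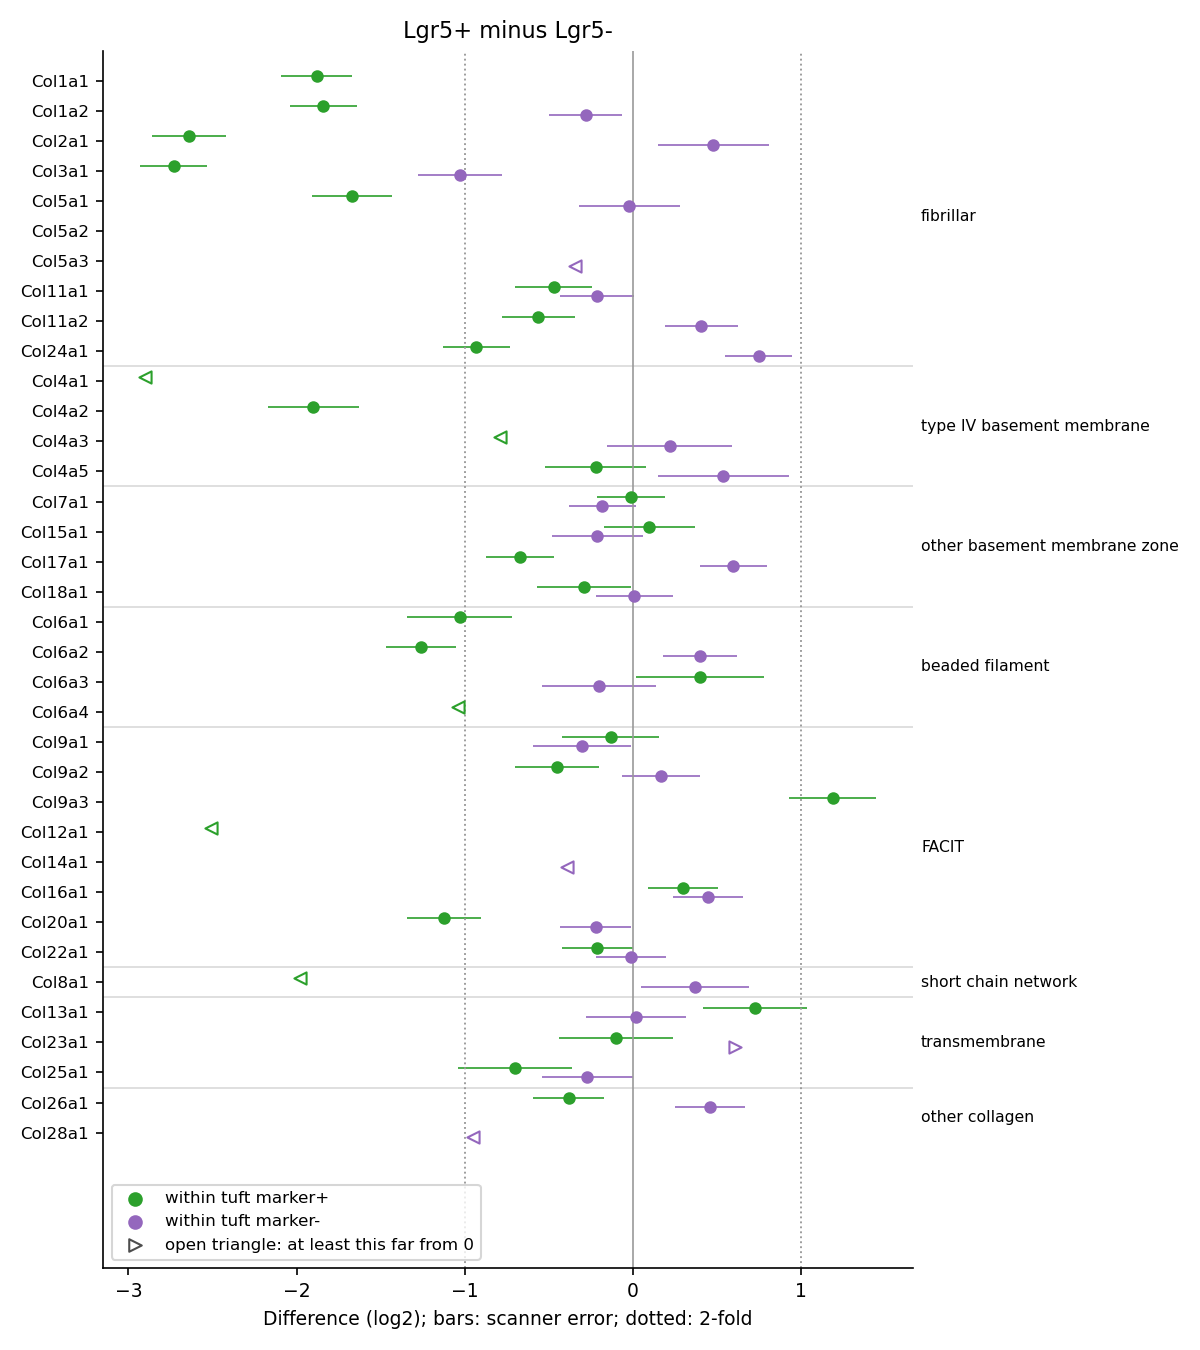
Difference between Lgr5+ and Lgr5- cells (log2, horizontal axis) for each measured chain (rows, grouped by class), within tuft marker+ (green) and within tuft marker- (purple). Bars are the scanner error, triangles are lower limits and dotted lines mark 2-fold. Within tuft marker+ the 13 chains left of the lower line include Col3a1, Col2a1 and Col4a1, and within tuft marker- only Col3a1 passes it.

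The beaded filament chains of type VI, which link cells to surrounding fibrils, went the way of the fibrillar ones in part. Col6a2 had levels of -0.47, -0.62, 0.80 and -1.02, with tuft marker differences of 0.15 within Lgr5+ and 1.82 within Lgr5- (3.53-fold). Col6a1 was above background on both tuft marker+ arrays, at -2.66 with Lgr5+ and -1.63 with Lgr5-, and on neither tuft marker- array (-4.93 with Lgr5+ and -3.77 with Lgr5-). It was at least 3.32-fold higher within Lgr5-. Col6a4 was above background in Lgr5-only cells (-3.40) and tuft-only cells (-2.04), at -3.24 in both other populations without passing background, and was at least 2.30-fold higher within Lgr5-.

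Among the fibril-associated chains, Col12a1, which binds type I fibrils, was above background only in tuft-only cells at -0.57, against -5.04, -4.13 and -3.67 in double-positive, Lgr5-only and double-negative cells. It was at least 6.94-fold higher than in double-negative cells. Col9a3, a chain of the cartilage collagen type IX, was above background on both tuft marker+ arrays, at -0.81 with Lgr5+ and -2.00 with Lgr5-, and on neither tuft marker- array (-3.87 and -4.11). Its tuft marker difference was a factor of at least 6.66 within Lgr5+ and at least 2.57 within Lgr5-. It was the 1 chain at least 2-fold higher in double-positive than in tuft-only cells, by 2.28-fold (1.19). A second Col9a3 probe gave the other direction for double-positive against tuft-only cells, at -0.60, a limit. Its tuft marker differences were -0.13, also a limit, within Lgr5+ and 0.37 within Lgr5-.

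Col20a1, another fibril-associated chain, had levels of -1.17, -0.55, -0.04 and -0.34 and was 2.18-fold lower in double-positive than in tuft-only cells (-1.12). Col8a1, a short network chain of vessel walls, was not well above background in double-positive cells (-4.57) and read -2.20, -1.10 and -2.57 in the Lgr5-only, tuft-only and double-negative cells. It was 2.78-fold higher in tuft marker+ cells within Lgr5-. The 15 other measured chains, outside the fibrillar and type IV classes, gave no value past 2-fold in any of the 4 pairs. Their values ran between -0.95 for Col28a1 and 0.92 for Col23a1, both of them limits behind which a larger difference may lie. They were Col7a1, Col15a1, Col17a1, Col18a1, Col6a3, Col9a1, Col9a2, Col14a1, Col16a1, Col22a1, Col13a1, Col23a1, Col25a1, Col26a1 and Col28a1.

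Further probes bear on these readings. Of the 44 chains 22 had more than 1 probe, and of 23 further probes 13 were above background on no array. For 6 chains above background on all 4 arrays, Col11a1, Col24a1, Col4a5, Col6a3, Col13a1 and Col25a1, no other probe was above background anywhere. The second probes of Col12a1, Col6a4, Col5a3 and Col28a1, whose brightest probes passed background on some arrays only, were also above background nowhere. Whether the brightest probe of such a chain reads its transcript was not tested. Col1a2, Col2a1, Col3a1, Col5a1, Col4a1 and Col4a2 had 1 probe each.

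**Figure D4:**
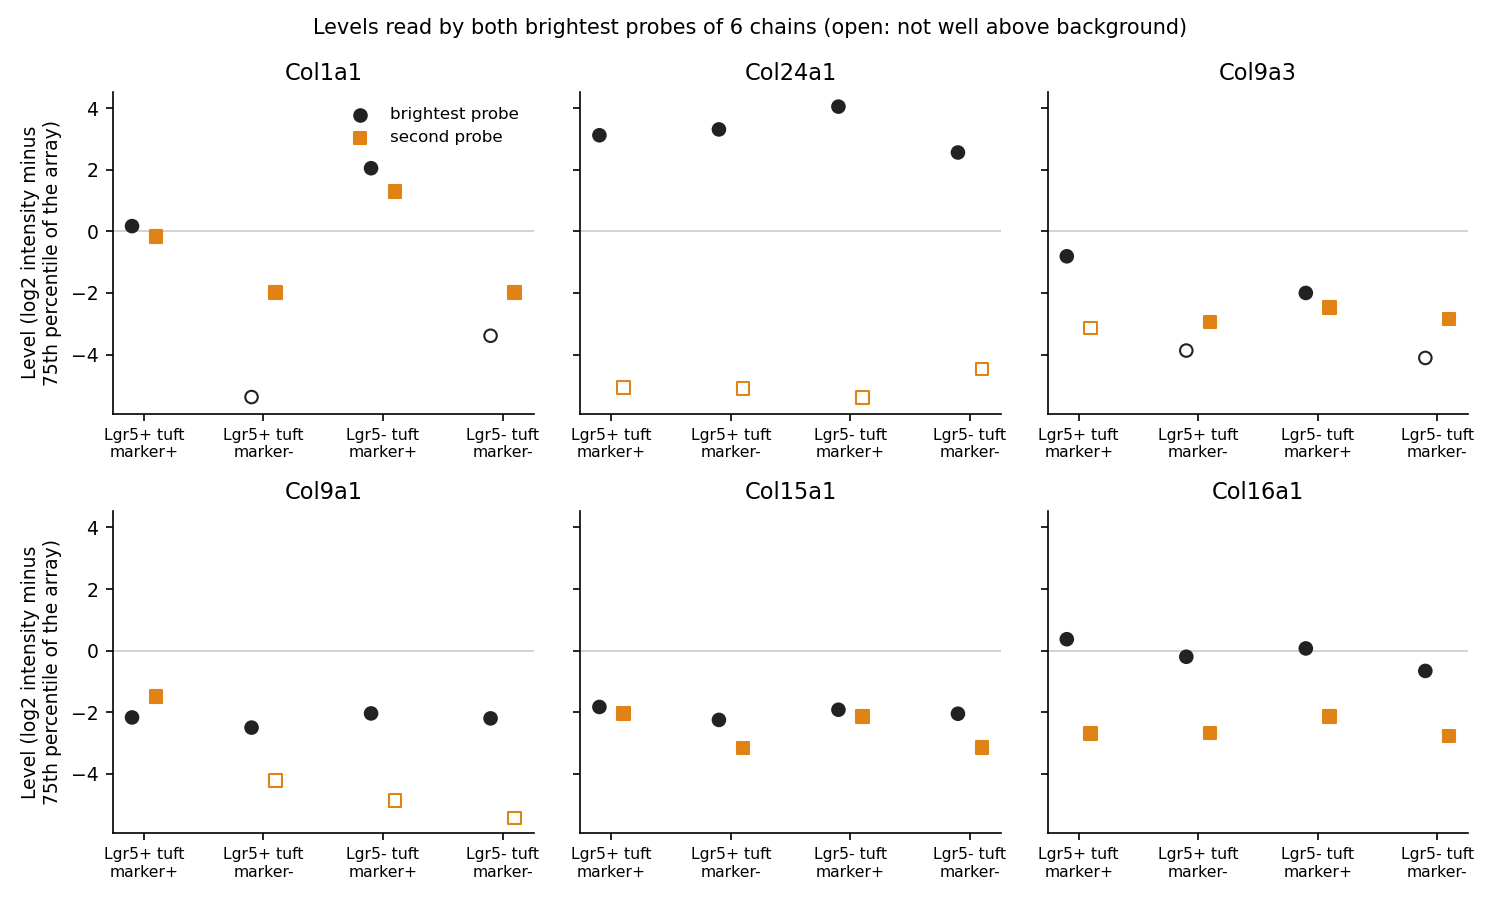
Levels of both brightest probes of 6 chains in the 4 populations, as log2 intensity minus the 75th percentile of the array, the chains being chosen after their values were seen. Open points were not well above background. For Col1a1 both probes were higher on the tuft marker+ arrays, for Col9a3 and Col9a1 the probes disagreed, and for Col24a1 the second probe was above background nowhere.

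Genes that make, export and bind collagen were set beside the chains. For the tuft marker counts of these lists and of the cell type markers, the shares of all genes past 2-fold were 11.5% higher and 7.87% lower within Lgr5+, and 16.1% higher and 12.7% lower within Lgr5-. In each list, a gene above background on only 1 array of a pair could differ in that direction alone. The fibril-associated matrix list went furthest with them, with 5 of 8 measured genes past 2-fold upward and 1 downward within Lgr5+, and 7 of 10 upward and 0 downward within Lgr5-, at medians of 2.59 and 3.41. Lower limits made up 3 of the 8 and 3 of the 10. Within Lgr5+ these were Fn1, Bgn and Fbn1, above background in double-positive but not in Lgr5-only cells. Fn1, for fibronectin, had levels of 1.74, -5.58 (not above background), 2.54 and -1.49 and differences of at least 5.29 within Lgr5+ and of 4.03 within Lgr5-. Bgn, for biglycan, a small proteoglycan, was higher by at least 3.24 and by 4.21. Postn, for periostin, was the farthest the other way, at -2.07 within Lgr5+ and 0.54 within Lgr5-.

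The hydroxylase list covers collagen hydroxylation inside the cell and also holds genes that are not hydroxylases, such as Crtap and Colgalt1. In it 1 gene was higher and 2 lower of 11 within Lgr5+, and 1 higher and 0 lower of 12 within Lgr5-. The medians were -0.28 and 0.37. Within Lgr5-, 1 of 12 is a smaller share than the 16.1% of all genes that were higher, and nothing is read from it for the list. Crtap, a part of the prolyl 3-hydroxylation complex, differed by 4.17 within Lgr5+ and by 0.61 within Lgr5-, P4ha1, a catalytic subunit of prolyl 4-hydroxylase, by 0.88 and 0.57, and P4hb, its partner subunit, by -0.28 and -0.98. In the chaperone and export list 1 of 9 was higher and 0 lower within Lgr5+, and 2 higher and 1 lower within Lgr5-, at medians of 0.52 and -0.36, with the higher share within Lgr5+ close to the 11.5% of all genes. Serpinh1, the collagen chaperone HSP47, had levels of -1.31, -2.20, 0.47 and -1.97 and differences of 0.89 and 2.43. Fkbp14, an isomerase that assists collagen folding, was lower by less than 2-fold in both pairs, at -0.75 and -0.36.

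Of the genes that trim and cross-link procollagen, 3 of 8 were higher and 1 lower within Lgr5+ and 5 of 11 higher and 0 lower within Lgr5-, at medians of -0.19 and 0.93. Lower limits made up 4 of the 8 and 6 of the 11. Adamts2 and Loxl3 in both pairs, and Lox and Loxl1 within Lgr5-, passed background only with the tuft marker. These could only be higher. Adamts2, which removes the amino-terminal propeptide, was higher by at least 1.94 and 1.60, and Loxl3, a lysyl oxidase, by at least 1.23 and 2.74. Tll1, which cleaves the carboxy-terminal propeptide, was lower, at -1.01 and -0.88. The laminins, nidogens and proteoglycans of the basement membrane gave 2 of 10 higher and 2 lower within Lgr5+ and 4 of 13 higher and 1 lower within Lgr5-, at medians of -0.13 and 0.39. Among all genes 11.5% were higher and 7.87% lower within Lgr5+, and 16.1% and 12.7% within Lgr5-. Lamc1, a laminin chain common to most basement membranes, was higher by 3.02 and 1.29, and Lamb3, a chain of the epithelial laminin with Col17a1 at hemidesmosomes, was at -0.70 and -0.72.

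Of the collagen receptors 1 of 9 was higher and 0 lower within Lgr5+ and 2 of 10 were higher and 2 lower within Lgr5-, at medians of -0.14 and 0.26, shares near those of all genes. Lair1, an inhibitory receptor of immune cells, differed by at least 1.43 and 2.40, higher with the tuft marker. Itga11, an integrin chain of fibroblasts, was at 0.74 and 0.46, and Itga1 was at 0.03 and -1.59. Within tuft marker+ cells, 6 of 9 genes of the fibril-associated list were at least 2-fold lower in Lgr5+ than in Lgr5- cells and 0 higher. The lower and higher counts were 5 and 0 of 11 for the processing list and 4 and 1 of 12 for the basement membrane list. They were 2 and 0 of 12 for the hydroxylase list, 3 and 2 of 9 for the chaperone list and 2 and 1 of 9 for the receptors. Among all genes in that pair 11.0% were lower and 9.74% higher.

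Markers of other cell types that an EpCAM sort could carry along moved with the chains in places. The genes Dcn and Lum are on both the fibroblast list and the fibril-associated matrix list, so the counts of these lists are not separate. All 12 fibroblast markers were above background in tuft-only cells, against 7 in double-positive, 6 in Lgr5-only and 6 in double-negative cells. Over all 22907 genes the counts were 17087 in tuft-only cells, against 15241, 16809 and 15866 in these other populations. Pdgfra, Pdgfrb, Lum, Dpt and Fap passed background in tuft-only cells only, as Col4a1 and Col12a1 did. The summed linear level of the list, in units of the 75th percentile of the array, was 11.6, 6.05, 21.6 and 4.53 in the order double-positive, Lgr5-only, tuft-only, double-negative, and that of all 44 collagen chains was 32.0, 27.8, 73.7 and 22.4. A sum mixes probes and takes in spots not above background, so its brightest probes weigh most. Among the chains the highest level on every array was that of Col24a1, at 3.12, 3.31, 4.05 and 2.56. The tuft marker median of the fibroblast list was 0.22 over 7 genes within Lgr5+ and 1.42 over 12 within Lgr5-, with 3 of 7 past 2-fold upward and 1 downward within Lgr5+, and 9 of 12 upward and 0 downward within Lgr5-, beside 11.5% and 7.87% of all genes within Lgr5+ and 16.1% and 12.7% within Lgr5-. Of the 12, 6 gave lower limits within Lgr5-, where they passed background on the tuft-only array and not on the double-negative one. The part of fibroblast RNA in the collagen differences was not tested.

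Macrophage markers also moved with the tuft marker sort, with summed levels of 78.2, 41.8, 129 and 41.5, 6 of 9 higher within Lgr5+ and 8 of 9 within Lgr5-, beside 11.5% and 16.1% of all genes, and 0 lower in either pair. Csf1r, among the brightest of them, was near level at 5.03, 5.05, 5.17 and 5.04 and makes up much of each sum. Endothelial markers summed to 0.550, 0.986, 2.26 and 0.989, with Kdr, Tek and Emcn above background on no array. Within Lgr5-, 2 of 4 measured endothelial markers were higher and 0 lower, with Pecam1 at 1.95, and within Lgr5+ 0 of 3 were higher and 1 lower. Pericyte markers summed to 3.45, 5.77, 8.11 and 3.69, with Kcnj8 and Abcc9 above background on none. Within Lgr5-, 2 of 3 measured pericyte markers were higher and 0 lower, and Rgs5, above background in tuft-only cells only, was higher by at least 1.55, while within Lgr5+ 0 of 2 passed 2-fold either way. Smooth muscle and myofibroblast markers summed to 49.1, 49.2, 40.8 and 62.6. Of these markers 2 of 7 were higher and 0 lower within Lgr5-, and 0 of 5 passed 2-fold within Lgr5+, and Des and Synpo2 were above background in tuft-only cells only. Tuft cell markers summed to 82.4, 7.12, 56.0 and 3.0, and epithelial markers to 331, 189, 264 and 248. Of 9 epithelial markers, 2 were higher and 0 lower within Lgr5+, at a median of 0.47. Within Lgr5-, 1 was higher and 2 were lower, at a median of -0.62. The 1 higher was Krt18, at 7.09 in tuft-only and 5.53 in double-negative cells. The epithelial sum was thus higher in tuft-only than in double-negative cells although the median difference was below 0. The part of any of these lists in the result was not tested.

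**Figure D5:**
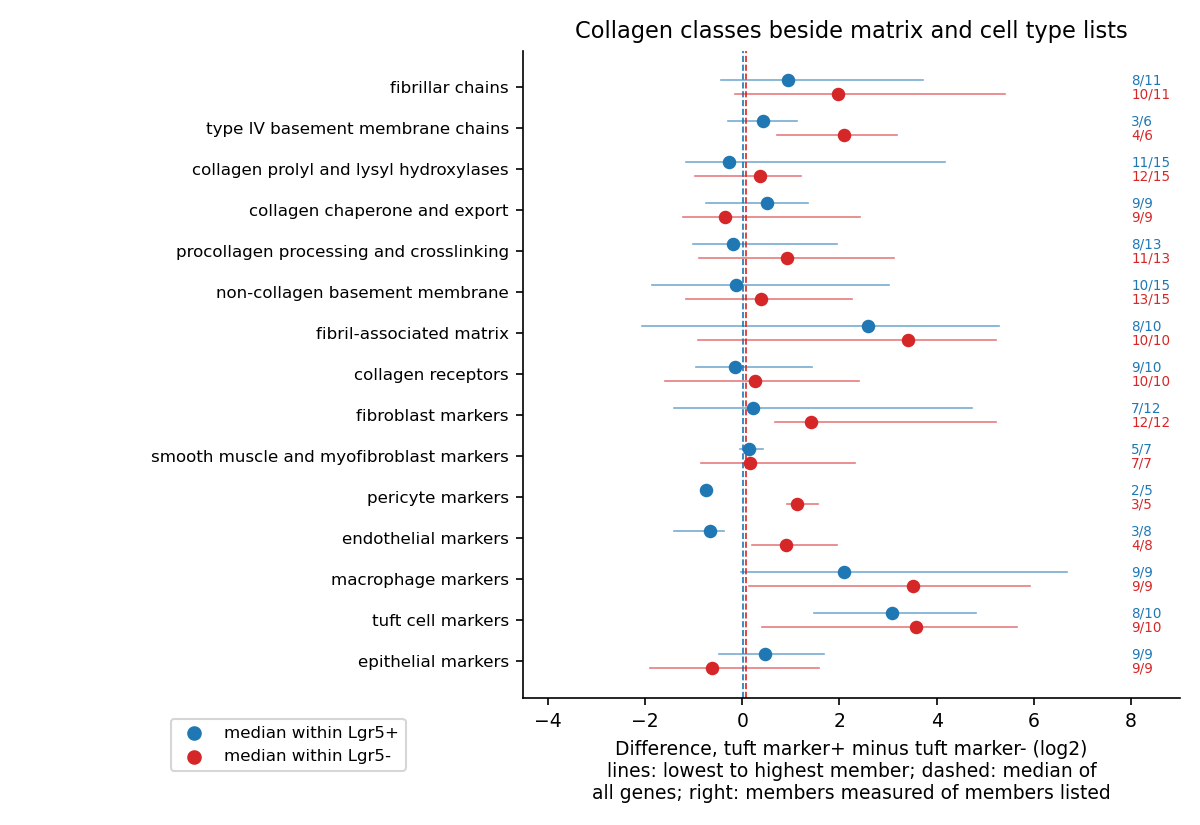
Median difference between tuft marker+ and tuft marker- cells (log2, points) for 2 collagen classes and for the lists of matrix genes and cell type markers, within Lgr5+ (blue) and within Lgr5- (red), with lines from the lowest to the highest member. Dashed lines are the medians of all genes, and the numbers at the right are members measured of members listed. Fibrillar chains had medians of 0.94 and 1.98, fibril-associated matrix 2.59 and 3.41, and macrophage markers 2.10 and 3.51.

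The balance of all genes depended on how the arrays were scaled. Within Lgr5-, 55.7% of the genes at least 2-fold apart were higher in tuft marker+ cells, against 36.4% with each array scaled to its median and 79.2% in the authors' value table. The median of all genes was 0.07, -0.17 and 0.39 under these 3 scalings, and the chains counted as higher were 15, 13 and 18, with 0 lower in each. For Lgr5+ against Lgr5- within tuft marker+, 47.0% of genes were higher, against 67.9% and 28.0%, with medians of -0.03, 0.20 and -0.22, and 13, 10 and 14 chains were lower. Within tuft marker- the share was 53.6%, against 40.8% scaled to the array median.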

How the data were processed

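Total RNA came from sorted cells by a column kit, per the labels' protocols, and 13 ng was amplified, labelled with Cy3 and hybridised. Per the file headers, Agilent Feature Extraction 12.0.3.1 subtracted the background from the deposited intensity values and detrended them. Version 11.5.1.1 is given in the submitters' processing notes. The deposited files also hold flags, set by that software, for saturated, outlying, positive and significant, or well above background spots. The authors also deposited a value table, whose columns were, from the values themselves, the same intensity multiplied by 1 constant per array (10.9, 7.82, 11.9 and 9.08 in the order of populations used throughout), with medians of 279, 286, 365 and 253. Its scale was thus linear and not centred by gene, and no source used here states a reason for these constants.

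All 4 arrays lay on 1 slide. Control spots and 91 to 122 outlier spots per array were left out. Of 56605 probes 32989 were named through their accession in a RefSeq gene table of GRCm38.p6, giving 22907 genes. The array grid was annotated on mm9, so no probe coordinates are given. Levels were log2 of the processed intensity minus the array's 75th percentile, which was an intensity of 103, 141, 108 and 115. A gene was measured in a pair if well above background on at least 1 array of it, with the exception given below. Values not well above background were raised to the floor, the lowest level among probes that were (-3.07, -3.55, -3.35 and -3.36), or kept where higher, and such differences are lower limits, "at least". A gene was left out of a pair where the value so set on 1 array lay above its well above background level on the other. Examples are Col6a4 within Lgr5+ and Col4a2 within tuft marker-. With no floor none was left out in this way. Then 17461 genes and 30 chains were measured within Lgr5+, against 16895 and 29. Genes 2-fold or more apart were counted. With 1 array per population nothing was tested between groups, and arrays being so few limits the precision.

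All fibrillar and type IV chains above background are named, as are other chains 2-fold apart in a pair, and from each of 6 lists of matrix genes the 2 genes with the largest shared tuft marker difference and the gene farthest the other way. Fibroblast and macrophage markers are among 8 marker lists. The enteric glia list is not reported here. Of 178 genes on these lists or among the chains, 177 were on the array. The members and lists were chosen with earlier results of these data known. Planned normexp correction (limma 3.58.1, R 4.3.3, offset 50) was to use mean signals, and was run on the median signals that the files hold. The 2-fold counting was tested on simulated data with the floor switched off. The floor, the lower limits and the medians were not tested in that way. Other steps used Python 3.11.15 with numpy 2.4.6 and pandas 2.3.3.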

Additional observations from a re-analysis of the deposited data

Results flagged for a closer look

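Differences by tuft marker lay in opposite directions within Lgr5+ and within Lgr5-, and at least 2-fold apart from each other, for 3 chains. Measured differences had to exceed their scanner error, and limits were taken at their value. Col11a2 (-0.44 and 0.53), Col20a1 (-0.62 and 0.29) and Col26a1 (-0.39 and 0.44) were also opposite in sign but less than 2-fold apart, and Col24a1 (-0.20 and 1.49) was opposite with a first value inside its scanner error. Col17a1, the hemidesmosome chain, was at -0.89 within Lgr5+ and 0.38 within Lgr5-. A second Col17a1 probe, above background only in double-negative cells, gave -0.57, a limit, within Lgr5-. The direction of Col17a1 within Lgr5- therefore depends on the probe. Col8a1, the short network chain, was at -0.87, a lower limit, within Lgr5+ and at 1.47 within Lgr5-. Col4a3, a type IV chain of specialised basement membranes, was at -0.30, a limit, within Lgr5+ and at 0.71 within Lgr5-. The limit is no larger than the scanner error of its double-positive spot, 0.36, so its direction is not beyond that error. Each rests on 1 array per population, and whether the differences themselves differ was not tested.

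Probes that did not stand for their gene showed a tuft marker difference of 2-fold or more where the brightest probe did not. The second probe of Col15a1, a basement membrane chain, was higher in tuft marker+ cells by 1.13 within Lgr5+ and by 1.01 within Lgr5-, while its brightest probe gave 0.43 and 0.12. The second probe of Col9a1, a cartilage chain, was above background only in double-positive cells and higher there by at least 2.05, while the brightest probe gave 0.33.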

How the results depend on the processing

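Counts and medians of the chains were recomputed under 11 alternatives. Of 176 values, 134 stayed within the spread allowed and 42 moved. The type IV median within tuft marker- changed sign, as given below, and the median of all chains there, 0.00, ran from -0.19 to 0.08. In the other pairs no median changed sign. The cause of the moves was not tested beyond what each setting does by construction. No paired analysis was possible because each population had 1 array and the labels give no replicate numbers; no array could be left out for the same reason. Normexp was run on median signals.

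For tuft marker+ against tuft marker- cells within Lgr5- (15 chains higher; medians 0.62 for all chains, 1.98 fibrillar, 2.09 type IV), normexp, which shrinks low signals, gave 9 chains and medians of 0.29, 1.28 and 0.82. With only probes above background on all 4 arrays, which leaves 22 chains, these were 7 chains, 0.33, 2.46 and 1.18. With no detection filter the medians were 0.25, 1.49 and 0.95. The mean of all probes gave 0.37 for all chains and 2.46 fibrillar, and the values that the authors deposited 1.03 and 2.77. The fibrillar median was 2.24 scaled to the array median, 2.39 after quantile normalization and 1.49 with detection by positive and significant signal, where type IV was 1.05. With no floor type IV was 2.53.

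Within Lgr5+ (6 chains; medians 0.21, 0.94 and 0.42), 3 chains were left with only probes above background on all 4 arrays. The fibrillar median was 0.43 by normexp and 0.47 with no detection filter, where all chains gave 0.47. Type IV was 0.05 with the positive and significant flag.

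For Lgr5+ against Lgr5- cells within tuft marker+ (1 chain higher; medians -0.69, -1.76 and -1.35), 0 chains were higher by normexp, in the authors' table and with only probes above background on all 4 arrays. The medians were -0.21, -0.97 and -0.49 by normexp and -0.26, -0.93 and -0.51 with no detection filter. The mean of all probes gave -0.45 for all chains. With the positive and significant flag the fibrillar median was -1.30 and type IV -0.70, and with only probes above background on all 4 arrays type IV was -0.22. The 13 chains lower ranged from 5 by normexp to 14 in the authors' table. Within tuft marker- (0 chains higher; type IV median 0.38), 1 chain was higher by the mean of all probes and 5 with the positive and significant flag, and the type IV median was -0.15 by the mean of all probes and -0.11 with no detection filter.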
